A study of Homo sapiens with 28 samples.

Results

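The genes described here are 31 known transcriptional targets of p53, chosen by gene symbol out of the 58278 rows of the count table. They were followed in HCT116 cells, a human colorectal carcinoma line. All libraries came from a derivative of HCT116 that expresses luciferase and GFP, selected for GFP after lentiviral transduction and injected under the skin of 5-week-old male NOD SCID mice, which lack working B and T cells. The mice then received vehicle (Control), Palbociclib at 100 mg/kg, Telaglenastat (spelled Telaglenestat in the sample labels) at 150 mg/kg, or both at these doses (Combination), each once a day by gavage over 23 days. Palbociclib inhibits the kinases CDK4 and CDK6, and Telaglenastat inhibits glutaminase. RNA was sequenced from 16 residual tumors (3 Control, 5 Palbociclib, 4 Telaglenastat and 4 Combination) and from 12 cultures established from tumors of such mice (3 per treatment). The cultures were grown without drug, so their treatment label is that of the tumor of origin, and which tumor each came from is not given in the sources used here.

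p53 is a transcription factor that is kept scarce by its own target MDM2, a ubiquitin ligase, and that accumulates when DNA damage, nucleolar stress or nutrient stress interrupts this loop. It binds a pair of adjacent half-sites and raises transcription of genes that act in growth arrest, DNA repair, cell death, metabolism and its own restraint. Its best known target in colorectal cells, CDKN1A, encodes the CDK inhibitor p21 and was followed as a reference. The members were grouped by role into feedback and p53 control, apoptosis and death receptors, cell cycle and growth arrest, DNA repair and nucleotide supply, metabolism and redox, and membrane, trafficking and antiviral genes.

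The sequences that p53 reads were looked for in the promoters of the members. The members are known p53 targets, and binding sites may have been part of how they became known. A higher share of sites among them is therefore a description and no independent support for the list. Promoter windows from RefSeq (GRCh38.p14) ran from 250 bases before to 50 bases after each gene start and were found for 25 of the 31 members. A full p53 consensus site of 20 bases, with no spacer, with the C and G of each half-site fixed and at most 2 other departures, was present in 5 of 42 member windows (11.9%), against 100 of 35116 windows of all genes (0.285%). The consensus reads the same on both strands. The 4 members with such a site follow, read on the + strand, 5′ to 3′, with the 20 bases of the site in capitals and 5 flanking bases on each side.
AEN: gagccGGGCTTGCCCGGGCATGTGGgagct
DDB2: gctccAAGCTGGTTTGAACAAGCCCtgggc
FAS: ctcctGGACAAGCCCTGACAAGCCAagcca
MDM2: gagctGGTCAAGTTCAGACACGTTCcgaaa
The AEN stretch lies at chr15:88621301-88621330, and its site ends 15 bases before the RefSeq start used, with 2 departures from the consensus. In the GENCODE 29 annotation this site overlaps an exon of 1 of the 6 AEN transcripts. The DDB2 stretch at chr11:47214964-47214993 spans the RefSeq start used and departs at 1 base. Its site overlaps an exon of 1 and lies within an intron of 2 of the 16 DDB2 transcripts in GENCODE 29. The FAS stretch at chr10:88991304-88991333 lies 103 bases before the start used. It lies within an intron of 11 of the 20 FAS transcripts in the GENCODE 29 annotation, and its site overlaps an exon of 2. The MDM2 stretch at chr12:68808918-68808947 lies 75 bases before the start of the transcript used, and within an intron in 7 of 34 MDM2 transcripts. A match describes these letters only, and the absence of one in the other windows says nothing about binding elsewhere in the gene.

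Libraries held between 6273834 and 13815675 counted reads, and 30 of the 31 members passed the filter on low counts. SPATA18 did not, with 74 reads over all 28 libraries. A trend of counts with gene GC content moved with the treatment and touches every tumor result below. Its slope (log2 CPM per SD of GC content, against the mean of all tumors, where CPM is a read count scaled to a common library size) was 0.249 to 0.261 in Control tumors and 0.096 to 0.366 in Palbociclib tumors, but -0.391 to -0.305 in Telaglenastat and -0.288 to -0.161 in Combination tumors. Every tumor exposed to Telaglenastat therefore had a negative slope and no other tumor did, so that the drug and the trend cannot be told apart in these tumors. The main tumor results of the members are given with and without a correction of every library for its trend with GC content and exon length. The carcinoma markers EPCAM, KRT8 and KRT18 were at 320.3 CPM or more in every library, whereas CDX2 stayed at 2.94 to 9.40 CPM and VIL1 was at 0 in 9 tumors. The 15 stromal and immune markers summed to 56.5 to 218 CPM in tumors and 4.83 to 15.3 CPM in cultures, with LUM and CDH5 at 0 in all 16 tumors. Among tumor groups that sum was 171.5 to 218 CPM in Control, 129.5 to 215 CPM in Palbociclib, 56.5 to 69.6 CPM in Telaglenastat and 103.5 to 157 CPM in Combination tumors. The 9 epithelial markers summed to 2960 to 3510 CPM in Control, 3220 to 4344 CPM in Palbociclib, 1934 to 2092 CPM in Telaglenastat and 2599 to 2920 CPM in Combination tumors, and 5 of the 9 were called lower and 2 higher in Telaglenastat than in Control tumors (4 and 0 with the correction). Mitochondrial genes took 6.78% to 7.22% of the reads in Control, 8.28% to 13.6% in Palbociclib, 6.23% to 9.07% in Telaglenastat and 13.2% to 14.8% in Combination tumors. The part of these 3 measures in the results was not tested. In bulk RNA, fewer cells of a type and less RNA per cell cannot be told apart.

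CDKN1A was expressed in all 28 libraries. It averaged 154 ± 7.73 CPM (SD, n = 3) in Control tumors, 124 ± 15.2 in Palbociclib (n = 5), 82.9 ± 7.51 in Telaglenastat (n = 4) and 77.3 ± 10.1 in Combination tumors (n = 4). In Palbociclib tumors the CDKN1A log2 fold change was -0.31 ± 0.10 (SE, adjusted p = 0.0706) and passed the test with the correction only, at -0.34 ± 0.08 (adjusted p = 0.0152). It fell against Control in Telaglenastat and Combination tumors by the deposited counts, to -0.89 ± 0.11 (SE, adjusted p = 1.15e-06) and -0.99 ± 0.11 (SE, adjusted p = 5.32e-07), but with the correction the changes were 0.10 ± 0.09 (adjusted p = 0.533) and -0.19 ± 0.09 (adjusted p = 0.134). In the cultures it averaged 121 ± 17.6 CPM in Control, 89.7 ± 8.65 in Palbociclib, 141 ± 23.2 in Telaglenastat and 100.2 ± 7.17 in Combination lines (n = 3 each), and it did not pass the test in any comparison of cultures.

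The members spanned a wide range of levels in Control tumors, from 1.31 to 60.1 CPM per kb of exon with a median of 7.54. By this measure CCNG1, a cyclin that recruits a phosphatase to MDM2, was the highest, followed by the death receptor TNFRSF10B and the kinase PLK2, whereas TRIM22 and the tetraspanin CD82 were the lowest of those tested. The length used is that of all annotated exons of a gene joined, and the order depends on it. By CPM alone MDM2 (168.5) and RRM2B (158) were above PLK2 (141.4). Over the 8 groups of tumors and cultures, in CPM on 1 common scaling, the highest group mean was 1.30 to 20.9 times the lowest, with a median of 1.91. This ratio was under 2 for 18 of the 30 genes. TNFRSF10B varied least, between 152 CPM in Telaglenastat tumors and 197 CPM in Telaglenastat cultures. TRIM22 varied most, followed by GDF15 (7.75-fold), CD82 (6.83-fold) and TP53I11 (4.69-fold). Within groups, the median coefficient of variation of the members was between 9.51% and 13.7% in 7 groups and 25.2% in Telaglenastat cultures.

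**Figure D1:**
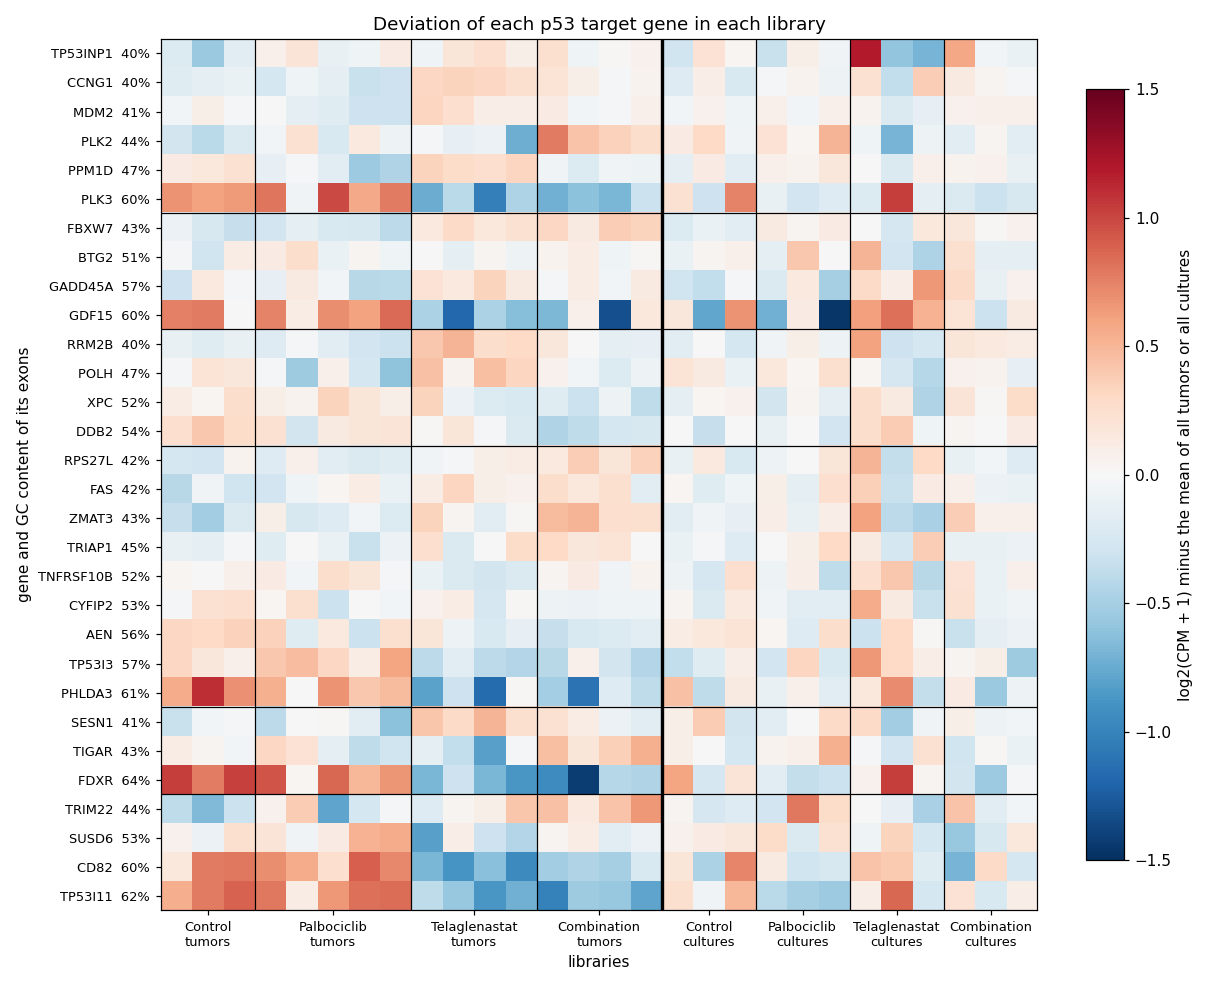
Heat map of the 30 tested members (rows, grouped by role, with exon GC content) in the 28 libraries (columns, by group). Color is log2(CPM + 1) minus the gene's mean over all tumors or all cultures. Telaglenastat and Combination tumors share blocks of higher and lower genes, and Telaglenastat culture 1 is higher than the other two of its group for TP53INP1, RRM2B, ZMAT3 and BTG2.

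The first question was whether p53 targets changed in tumors that persisted under Palbociclib. Only TP53INP1 rose and only PPM1D fell among the 30 members, while 28 did not pass the test. This is 3.33% of members in each direction, next to 2.55% of all 14848 genes tested that were called higher and 3.6% called lower (3.8% and 4.02% once corrected). The median log2 fold change of the members was -0.04, and that of all genes was 0.00.
TP53INP1 encodes a nuclear protein that promotes the phosphorylation of p53 and takes part in autophagy. It read 51.7, 66.6 and 68.03 CPM in Control tumors and 71.1, 73.3, 81.1, 83.7 and 87.7 CPM in Palbociclib tumors, so the groups did not overlap. The log2 fold change was 0.35 ± 0.10 (SE, adjusted p = 0.0436), and 0.43 ± 0.09 (adjusted p = 0.00578) with the correction. PPM1D (chr17:60600183-60666280) encodes WIP1, a phosphatase that reverses phosphorylation of p53 and of the damage kinases upstream of it. Its level was 59.3, 60.8 and 63.8 CPM in Control and 37.1, 39.4, 48.5, 49.8 and 53.6 CPM in Palbociclib tumors, all 5 below the lowest Control tumor. The log2 fold change was -0.42 ± 0.10 (SE, adjusted p = 0.0112), and -0.41 ± 0.09 (adjusted p = 0.00519) with the correction. TP53INP1 lost its call without any one of Control tumors 1 and 2 or Palbociclib tumors 1, 2 and 5, at adjusted p of 0.0668 or more, and PPM1D lost it without Control tumor 3 (adjusted p = 0.0658). When only the Palbociclib and Control tumors were fitted, neither passed the test (adjusted p = 0.0896 and 0.0637). TP53INP1 also lost its call with same-numbered libraries as a block and in 1 fit of all 28 libraries (adjusted p up to 0.666). PPM1D lost its call with the block too (adjusted p = 0.0708).

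**Figure D2:**
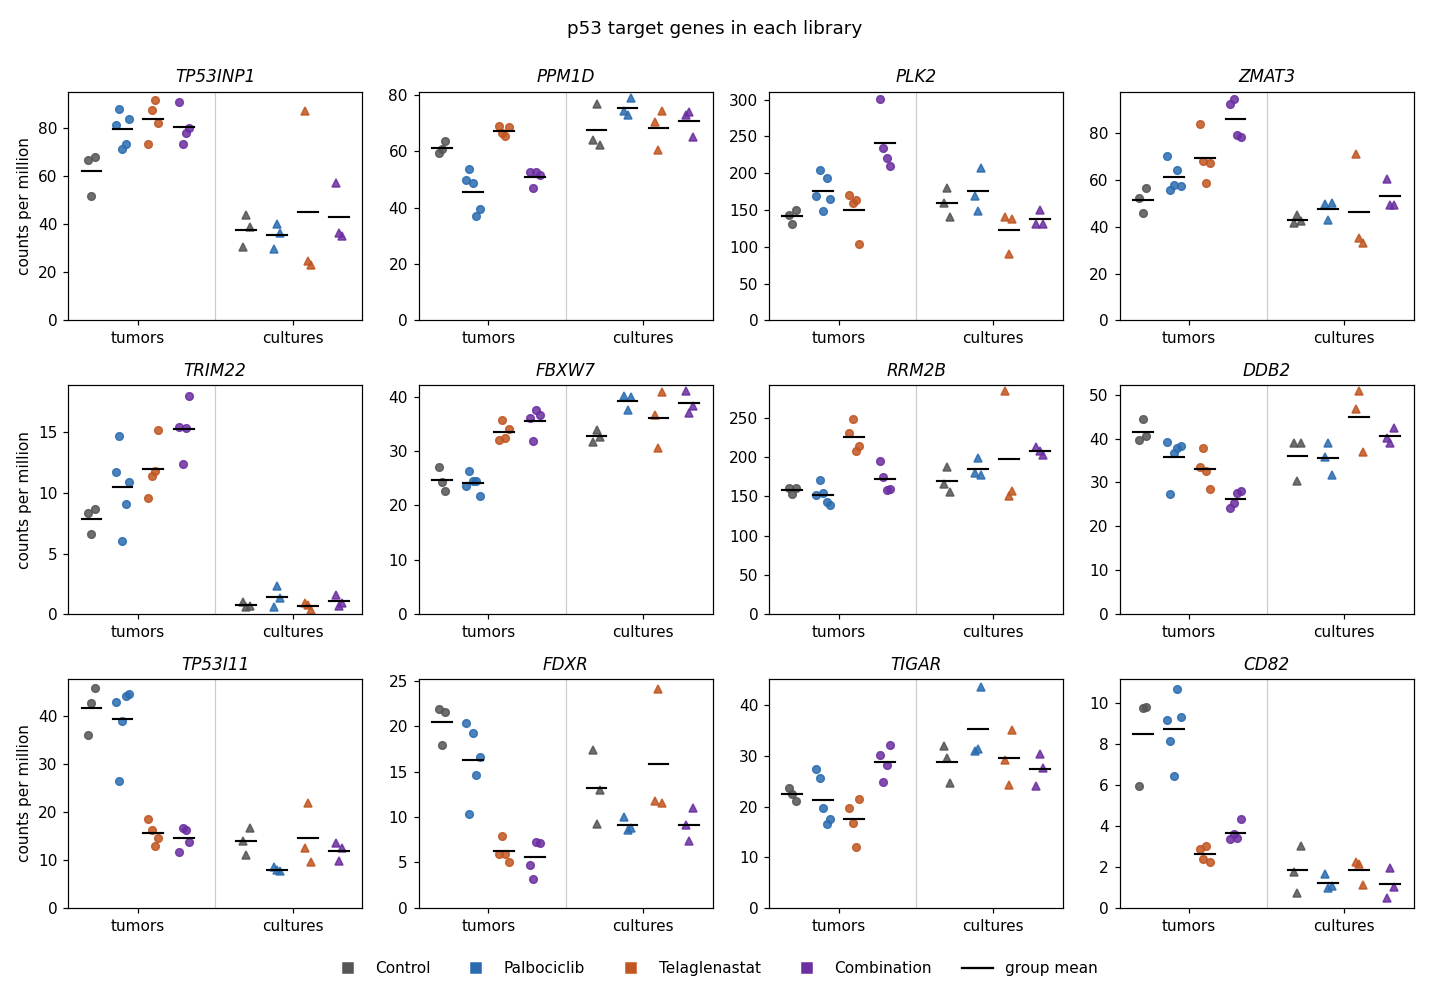
Expression of 12 genes in every library, in CPM on the scaling of tumors (circles) or cultures (triangles), with a bar at each group mean. Palbociclib tumors sit between 37.1 and 53.6 CPM for PPM1D, below the Control tumors at 59.3 to 63.8 CPM, and Combination tumors sit between 209.6 and 300.3 CPM for PLK2, above all other tumors.

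Telaglenastat tumors showed more changes among the members, in both directions. FAS, TP53INP1, SESN1, ZMAT3, RRM2B, CCNG1, TRIM22 and FBXW7 rose, and 10 members fell, among them FDXR, CD82 and PHLDA3. These 8 and 10 of 30 members (26.7% and 33.3%) compare with 22.6% of all genes called higher and 28.5% called lower. With the correction the members called were 1 higher and 1 lower, next to 5.53% and 7.48% of all genes, and none of the 18 was called in both fits. The members' median log2 fold change was 0.05 (all genes, 0.03).
Among the genes that rose, RRM2B supplies deoxynucleotides for repair as a ribonucleotide reductase subunit. It read 153, 160.2 and 161 CPM in Control and 208, 215, 231 and 248 CPM in Telaglenastat tumors, with no overlap, a log2 fold change of 0.51 ± 0.09 (SE, adjusted p = 6.17e-05), and 0.13 ± 0.07 (adjusted p = 0.293) with the correction. SESN1, a sestrin that restrains mTORC1, read 16.4, 20.4 and 20.8 CPM in Control and 25, 25.8, 28.4 and 30.4 CPM in Telaglenastat tumors. Its change was 0.52 ± 0.15 (SE, adjusted p = 0.00882), was 0.16 ± 0.14 (adjusted p = 0.525) with the correction, and did not pass the test without Control tumor 1 (adjusted p = 0.0611). TRIM22, an antiviral ubiquitin ligase, read 6.64, 8.31 and 8.65 CPM and 9.57, 11.4, 11.8 and 15.2 CPM, with a change of 0.61 ± 0.24 (SE, adjusted p = 0.0396) and 0.36 ± 0.23 (adjusted p = 0.366) with the correction. The TRIM22 call was lost without any one of the 3 Control tumors or Telaglenastat tumors 2, 3 and 4, at adjusted p of 0.0529 or more.
The largest falls were wider than the largest rises on the deposited counts. FDXR, the mitochondrial ferredoxin reductase, read 17.9, 21.6 and 21.9 CPM in Control and 5.06, 5.92, 5.93 and 7.94 CPM in Telaglenastat tumors, a log2 fold change of -1.71 ± 0.24 (SE, adjusted p = 9.68e-06). CD82, a membrane tetraspanin, read 5.95, 9.74 and 9.81 CPM and 2.23, 2.37, 2.89 and 3.04 CPM, a change of -1.69 ± 0.24 (SE, adjusted p = 1.17e-05). PHLDA3, which keeps AKT from the membrane, read 9.77, 10.7 and 14.7 CPM and 2.28, 3.19, 4.88 and 6.40 CPM, a change of -1.48 ± 0.29 (SE, adjusted p = 0.000337). All 4 treated tumors lay below all 3 Control tumors for each of these genes. With the correction the changes were -0.31 ± 0.20 (adjusted p = 0.382) for FDXR, -0.58 ± 0.25 (adjusted p = 0.141) for CD82 and -0.24 ± 0.27 (adjusted p = 0.655) for PHLDA3. The members called with the correction were GADD45A, a growth arrest gene, at 1.14 ± 0.15 (adjusted p = 4.21e-05), and TIGAR, which lowers glycolytic flux, at -0.66 ± 0.18 (adjusted p = 0.0171). By the deposited counts they had 0.27 ± 0.13 (SE, adjusted p = 0.0871) and -0.36 ± 0.18 (SE, adjusted p = 0.116).

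The direction of the members in Telaglenastat tumors ran with their base composition. Exon GC content ran from 39.5% to 63.5% over the 30 genes. The 8 members that rose had a GC content of 39.5% to 44.3% (median 41.65%), and the 10 that fell had 51.5% to 63.5% (median 59.7%), with no overlap. Across the 30 genes, which share libraries and are not independent replicates, Pearson's r of the log2 fold change with GC content was -0.88 for Telaglenastat and -0.86 for Combination tumors, and -0.28 for Palbociclib tumors. With the correction these were -0.11, -0.44 and -0.42.

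**Figure D3:**
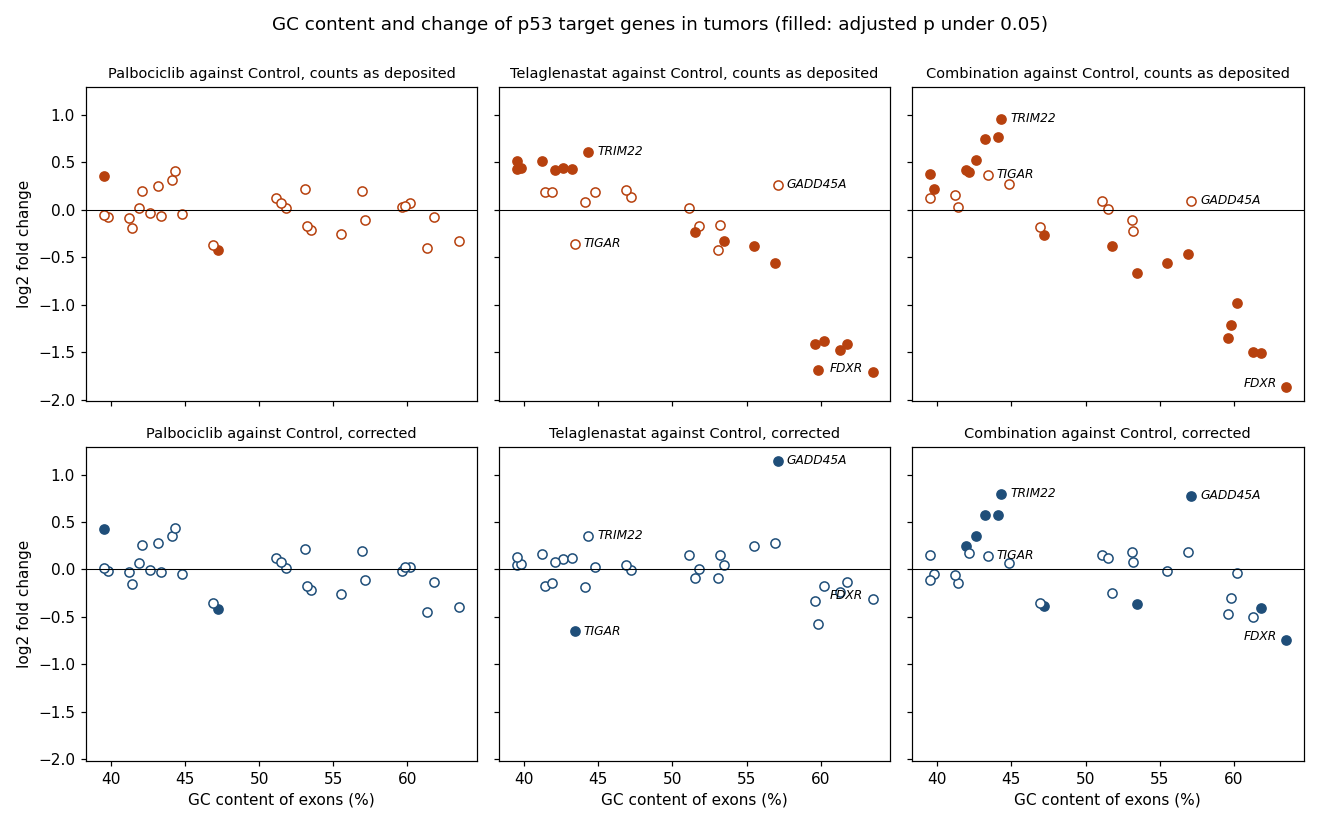
Log2 fold change against Control of the 30 members in tumors (vertical axis) against the GC content of their exons in percent (horizontal axis), for deposited counts (upper row) and after correction for GC content and length (lower row). In the Telaglenastat and Combination panels the genes run from upper left to lower right before the correction. After it, GADD45A is the highest at 1.14 and TIGAR the lowest at -0.66 with Telaglenastat, and TRIM22 the highest at 0.79 and FDXR the lowest at -0.75 with the Combination.

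With the correction 10 members were called in Combination tumors and 2 with Telaglenastat alone, next to 3882 and 1932 of all 14848 genes. By the deposited counts 6612 and 7590 of all genes were called. Over all genes too, the correction thus left a larger part of the calls in Combination tumors. Combination tumors also had the highest group range of the mitochondrial share of reads given above, whose part in the result was not tested. By the deposited counts 8 members rose and 11 fell (26.7% and 36.7%, against 17.6% and 26.9% of all genes). With the correction 6 were higher and 4 lower (20% and 13.3%, against 13.1% of all genes in each direction). Of the 19, 9 were called in both fits, namely ZMAT3, RPS27L, TRIM22, FBXW7 and PLK2 as higher and TP53I11, DDB2, FDXR and PPM1D as lower. These shared calls still split by GC content, at 41.9% to 44.3% for the higher and 47.2% to 63.5% for the lower genes. The share of all genes called in both fits is not given here, for this or any other comparison. GADD45A, with a GC content of 57.1%, was called higher with the correction only, at 0.77 ± 0.15 (adjusted p = 0.000963). The median log2 fold change was 0.02 for the members and -0.04 for all genes.
PLK2 (chr5:58453982-58460260), a polo-like kinase that acts after damage and at centrosomes, read 131, 143 and 149.6 CPM in Control and 209.6, 221, 234 and 300.3 CPM in Combination tumors. Every Combination tumor was above every other tumor, and the log2 fold change was 0.77 ± 0.15 (SE, adjusted p = 0.000234), or 0.57 ± 0.14 (adjusted p = 0.00349) with the correction. ZMAT3 (chr3:179017223-179072279), a zinc finger protein that binds RNA, read 46.04, 52.2 and 56.8 CPM in Control and 78.4, 79.5, 92.8 and 94.8 CPM in Combination tumors. Its change was 0.74 ± 0.12 (SE, adjusted p = 3.36e-05), and 0.57 ± 0.11 (adjusted p = 0.000645) with the correction. TRIM22 read 12.4, 15.3, 15.4 and 18 CPM in Combination tumors, all above the Control tumors, and changed by 0.96 ± 0.24 (SE, adjusted p = 0.00276), or 0.79 ± 0.23 (adjusted p = 0.0132) with the correction.
FDXR (chr17:74862497-74873031) read 3.13, 4.76, 7.14 and 7.24 CPM in Combination tumors, all below the Control tumors, with a log2 fold change of -1.87 ± 0.25 (SE, adjusted p = 4.98e-06) and -0.75 ± 0.21 (adjusted p = 0.0107) with the correction. TP53I11, a membrane protein first found as induced by p53, read 36.04, 42.7 and 45.7 CPM in Control and 11.6, 13.7, 16.2 and 16.6 CPM in Combination tumors. Its change was -1.51 ± 0.17 (SE, adjusted p = 7.52e-07), and -0.41 ± 0.12 (adjusted p = 0.0116) with the correction. PHLDA3 read 2.39, 4.13, 4.61 and 5.40 CPM in Combination tumors, a change of -1.501 ± 0.30 (SE, adjusted p = 0.000354), but with the correction it was -0.50 ± 0.27 (adjusted p = 0.193) and did not pass the test. Of the smaller changes called in both fits, FBXW7 was at 0.53 ± 0.10 (SE, adjusted p = 0.000307), RPS27L at 0.42 ± 0.10 (SE, adjusted p = 0.00142), DDB2 at -0.66 ± 0.12 (SE, adjusted p = 0.000181) and PPM1D at -0.27 ± 0.10 (SE, adjusted p = 0.0438). With the correction they were at 0.36, 0.24, -0.36 and -0.39 in the same order.

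**Figure D4:**
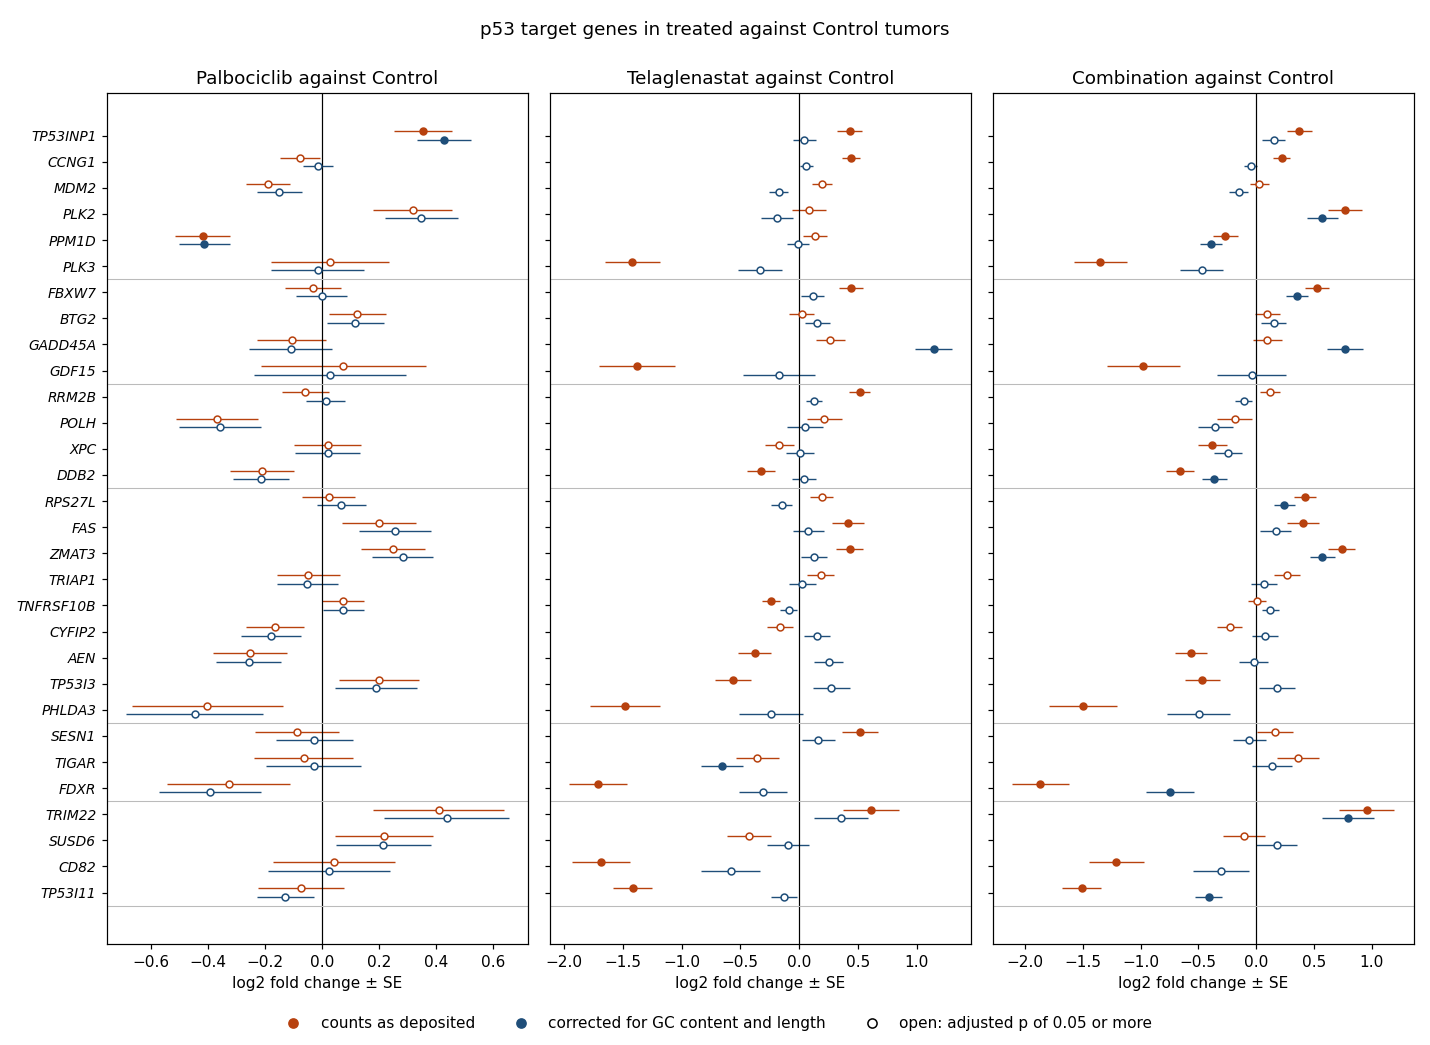
Log2 fold change against Control in Palbociclib, Telaglenastat and Combination tumors (panels) for the 30 members grouped by role, with bars of 1 SE. Orange points are from deposited counts and blue points from counts corrected for GC content and length, filled where the adjusted p is under 0.05, and each panel has its own horizontal scale. Filled orange points number 2, 18 and 19 and filled blue points 2, 2 and 10 in the 3 panels.

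By role, no group of members moved as a whole in Combination tumors. Of the 6 genes of feedback and p53 control, TP53INP1, CCNG1 and PLK2 rose and PLK3 and PPM1D fell, and with the correction 1 (PLK2) was higher and 1 (PPM1D) lower. MDM2, the main brake on p53, did not pass the test against Control under any of the drugs, with -0.19 ± 0.08 (SE, adjusted p = 0.188), 0.19 ± 0.08 (SE, adjusted p = 0.0601) and 0.03 ± 0.08 (SE, adjusted p = 0.802) in Palbociclib, Telaglenastat and Combination tumors. With the correction MDM2 was at -0.15 ± 0.08 (adjusted p = 0.303), -0.18 ± 0.08 (adjusted p = 0.184) and -0.15 ± 0.08 (adjusted p = 0.204) in the same order. Of the 9 apoptosis genes, FAS, ZMAT3 and RPS27L rose and TP53I3, AEN and PHLDA3 fell, and with the correction 2 (ZMAT3 and RPS27L) were higher and 0 were lower. Among the 4 repair genes XPC and DDB2 fell, of which DDB2, the sensor of ultraviolet damage, was also called with the correction. The 3 metabolic genes held 1 call, FDXR. Of the 4 membrane and antiviral genes, TRIM22 rose and TP53I11 and CD82 fell, and CD82 was not called with the correction. Among the 4 growth arrest genes FBXW7, the substrate receptor of a ubiquitin ligase for cyclin E, rose and GDF15, a secreted stress cytokine, fell, whereas BTG2 was at 0.10 ± 0.11 (SE, adjusted p = 0.488), or 0.15 ± 0.11 (adjusted p = 0.324) with the correction. With the correction 2 growth arrest genes (FBXW7 and GADD45A) were higher and 0 were lower.

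Combination and Palbociclib tumors were compared to see what Telaglenastat added to Palbociclib. Of the members, 9 were higher and 10 lower in Combination tumors (30% and 33.3%, against 20.1% and 27.5% of all genes), and 3 higher and 1 lower with the correction (10% and 3.33%, against 6.77% and 7.6% of all genes). FBXW7 and ZMAT3 were higher in both fits. FBXW7 read 21.8, 23.6, 24.4, 24.6 and 26.3 CPM in Palbociclib and 31.9, 36.05, 36.8 and 37.6 CPM in Combination tumors, a log2 fold change of 0.56 ± 0.09 (SE, adjusted p = 3.74e-05), and 0.36 ± 0.08 (adjusted p = 0.00517) with the correction. ZMAT3 read 56, 57.4, 57.9, 64.5 and 70.5 CPM in Palbociclib tumors, below all Combination tumors, and changed by 0.49 ± 0.10 (SE, adjusted p = 0.000460), or 0.29 ± 0.10 (adjusted p = 0.0438) with the correction. PLK2 read 148, 165, 169.6, 193 and 204 CPM in Palbociclib tumors and changed by 0.45 ± 0.12 (SE, adjusted p = 0.00562), or 0.22 ± 0.12 (adjusted p = 0.233) with the correction, which did not pass the test. The largest falls were in FDXR at -1.54 ± 0.23 (SE, adjusted p = 1.69e-05), TP53I11 at -1.44 ± 0.15 (SE, adjusted p = 3.80e-07) and the stress kinase PLK3 at -1.38 ± 0.21 (SE, adjusted p = 2.29e-05). Their values in Palbociclib tumors were 10.4, 14.7, 16.6, 19.2 and 20.3 CPM for FDXR, 26.4, 38.9, 42.8, 44.05 and 44.5 CPM for TP53I11 and 8.41, 13.6, 15.8, 16.1 and 18.5 CPM for PLK3. PLK3 read 4.92, 5.11, 5.38 and 6.84 CPM in Combination tumors. None of these falls was called with the correction, where FDXR was at -0.35 ± 0.19 (adjusted p = 0.250), TP53I11 at -0.28 ± 0.10 (adjusted p = 0.0786) and PLK3 at -0.45 ± 0.17 (adjusted p = 0.0784). GADD45A at 0.88 ± 0.14 (adjusted p = 0.000143) and TP53INP1 at -0.28 ± 0.09 (adjusted p = 0.0328) were called with the correction only.

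The comparison of Combination with Telaglenastat tumors, which both had negative GC slopes, asked what Palbociclib added. ZMAT3, TIGAR, TNFRSF10B and PLK2 were higher and DDB2, RRM2B, CCNG1 and PPM1D lower in Combination tumors. These 4 and 4 of 30 members (13.3% each) stand beside 8.93% of all genes called higher and 9.89% lower. With the correction 5 members were higher and 3 lower (16.7% and 10%, against 8.45% and 6.99% of all genes), and 7 of the 8 calls were shared by both fits, CCNG1 being the one that was not. RPS27L was called with the correction only, at 0.39 ± 0.08 (adjusted p = 0.00248).
TIGAR, a fructose-bisphosphatase that turns glucose toward the pentose phosphate pathway, read 12, 16.7, 19.8 and 21.6 CPM in Telaglenastat and 24.9, 28.3, 30.2 and 32.1 CPM in Combination tumors. Its log2 fold change was 0.72 ± 0.17 (SE, adjusted p = 0.00592), and 0.80 ± 0.17 (adjusted p = 0.00219) with the correction. PLK2 read 104, 160.2, 163 and 171 CPM in Telaglenastat tumors, all below the Combination tumors, and changed by 0.69 ± 0.13 (SE, adjusted p = 0.00115), or 0.76 ± 0.12 (adjusted p = 0.000239) with the correction. TNFRSF10B, the TRAIL receptor DR5, read 143, 149, 149 and 162 CPM and 168, 178, 181 and 189.6 CPM, a small change of 0.24 ± 0.07 (SE, adjusted p = 0.0212), and 0.21 ± 0.07 (adjusted p = 0.0423) with the correction. Among the genes that were lower, PPM1D read 65.3, 66.3, 68.5 and 69 CPM in Telaglenastat and 47.03, 51.6, 52.6 and 52.7 CPM in Combination tumors, a change of -0.40 ± 0.10 (SE, adjusted p = 0.00650), and -0.38 ± 0.09 (adjusted p = 0.00550) with the correction. RRM2B read 158, 159.8, 175 and 195 CPM in Combination tumors, below all Telaglenastat tumors, and changed by -0.39 ± 0.08 (SE, adjusted p = 0.00167), or -0.23 ± 0.07 (adjusted p = 0.0206) with the correction. DDB2 read 28.4, 32.6, 33.6 and 37.9 CPM and 24.1, 25.4, 27.6 and 27.97 CPM and changed by -0.34 ± 0.12 (SE, adjusted p = 0.0497), or -0.41 ± 0.10 (adjusted p = 0.00976) with the correction. PPM1D was thus lower in both groups given Palbociclib than in the matching group without it. DDB2 lost its call without any one of 7 of the 8 tumors, all but Telaglenastat tumor 4 (adjusted p of 0.0658 or more), and TNFRSF10B without Telaglenastat tumors 3 or 4 or Combination tumor 2 (0.0504 or more). DDB2 also lost its call in 5 of 8 other settings, among them DESeq2 (adjusted p = 0.0641) and no filter on low counts (0.0638), and TNFRSF10B in 3 of 8, at adjusted p of 0.0506 to 0.266. The count fell to 4 without Telaglenastat tumor 3 or Combination tumor 2.

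The other genes of the pathway were read from further lists. Of 21 tested regulators of p53, 1 was higher and 1 lower in Palbociclib tumors, next to the 2.55% and 3.6% of all genes given above, and 2 were higher and 0 lower with the correction. The gene that was higher in both fits was RPL11, a ribosomal protein that binds MDM2, at 0.36 (0.35 with the correction). The checkpoint kinase CHEK1 was called lower at -0.34 by the deposited counts only (-0.29). In Telaglenastat tumors 9 regulators were higher and 4 lower, where 22.6% and 28.5% of all genes were. The damage kinases ATM at 0.69 and ATR at 0.58 had the largest rises and the p53 relative TP73 the largest fall at -1.62, but with the correction they were at 0.27 ± 0.11 (adjusted p = 0.126), 0.17 ± 0.08 (adjusted p = 0.207) and -0.30 ± 0.31 (adjusted p = 0.606). The regulators called with the correction were 2 higher and 0 lower, and they were other genes, CDKN2A at 1.09 and CREBBP at 0.29. In Combination tumors 5 were higher and 6 lower (3 and 4 with the correction), where 17.6% and 26.9% of all genes were (13.1% each). ATR, at 0.52, was called in both fits (0.32), whereas TP73 was at -1.71 and -0.61 ± 0.31 (adjusted p = 0.163).
Of 36 further p53 targets, 1 was higher and 2 lower in Palbociclib tumors, and 3 and 2 with the correction. PMAIP1, which encodes the death protein NOXA, was higher in both fits at 0.56 (0.59), and KITLG lower in both at -0.43 (-0.35). APAF1 was called lower at -0.34 by the deposited counts only (-0.28). In Telaglenastat tumors 10 were higher and 17 lower, or 27.8% and 47.2%, and 1 and 6 with the correction, or 2.78% and 16.7%, where 5.53% and 7.48% of all genes were. In Combination tumors 10 were higher and 18 lower, or 27.8% and 50%, and 8 and 7 with the correction, or 22.2% and 19.4%. SFN, a 14-3-3 protein that holds cells in G2, fell in both, with -2.68 ± 0.26 (SE, adjusted p = 1.04e-07) and -2.01 ± 0.25 (SE, adjusted p = 2.48e-06), and was also called lower with the correction, at -1.23 and -0.90. BAX, the pore-forming death protein, was at -2.02 ± 0.21 (SE, adjusted p = 1.51e-07) in Telaglenastat tumors (-0.82 with the correction). PMAIP1 rose in Combination tumors by 0.84 ± 0.12 (SE, adjusted p = 1.46e-05), and 0.62 with the correction. The 20 proliferation genes, many of which are repressed when p53 and p21 are active, fell in 17 cases in Palbociclib and in all 20 in Combination tumors, with 18 and 20 called with the correction. Of all genes 3.6% and 26.9% were called lower there (4.02% and 13.1% with the correction). The part of p53 in these falls was not tested. In Telaglenastat tumors 4 of the 20 were higher and 8 lower (0 and 2 with the correction).

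Cultures grown from these tumors without drug were compared in the same way, to see whether differences lasted outside the mouse. None of the 30 members passed edgeR's test in any of the 5 comparisons, nor with DESeq2. At an unadjusted p under 0.05 there were 1 in Palbociclib, 2 in Telaglenastat and 0 in Combination cultures against Control. Of all 13985 genes tested, 592, 898 and 895 were under it in the same order. In Combination against Palbociclib and Telaglenastat cultures there were 0 and 1 members, next to 277 and 1969 of all genes. At the adjusted threshold 0% of all genes were called in 4 of the 5 comparisons and 0.00715% (1 gene) in Combination against Control. With the correction, 0, 4, 3, 3 and 1 members had an unadjusted p under 0.05, in the order given. Of all genes 350, 1118, 747, 481 and 855 did, and 0 members were then called at the adjusted threshold. In the same order, Pearson's r of the members' log2 fold change with GC content was -0.705, 0.304, -0.595, 0.294 and -0.735. With the correction it was -0.071, 0.085, 0.176, 0.214 and 0.111. By the deposited counts, the smallest p values were those of GADD45A and PLK2 in Telaglenastat cultures, TP53I11 in Palbociclib cultures and FDXR between Combination and Telaglenastat cultures. TP53I11 and FDXR have GC contents of 61.8% and 63.5%. GADD45A read 34.98, 36.9 and 44.5 CPM in Control and 48.9, 55.6 and 72 CPM in Telaglenastat cultures, a log2 fold change of 0.60 ± 0.19 (SE, adjusted p = 0.711) with an unadjusted p of 0.00787. PLK2 had -0.38 ± 0.17 (SE, adjusted p = 0.758) there (unadjusted p = 0.0428). TP53I11 had -0.80 ± 0.29 (SE, adjusted p = 0.795) in Palbociclib cultures (unadjusted p = 0.0149). FDXR had -0.80 ± 0.31 (SE, adjusted p = 0.319) in Combination against Telaglenastat cultures (unadjusted p = 0.0216). A p that misses the threshold does not show that the cultures were alike.
Telaglenastat cultures had the widest spread of the members within a group. TP53INP1 read 22.9, 24.6 and 87.2 CPM, RRM2B 151, 156 and 284 CPM, ZMAT3 32.98, 35.2 and 71.1 CPM and BTG2 18.9, 21.6 and 38.1 CPM in the 3 cultures, and the highest value was that of culture 1 in each case. Culture 2 had a GC slope of 0.426, against at most 0.18 in every other culture. Without culture 1, TP53INP1, ZMAT3 and RRM2B were called higher in Combination than in Telaglenastat cultures, at log2 fold changes of 0.85 (adjusted p = 0.0470), 0.64 (0.0248) and 0.44 (0.0327). In that fit 916 of 14332 genes (6.39%) were called, and all 3 members are among those in which culture 1 was high, so that leaving it out lowers the Telaglenastat mean.

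Control cultures were set against Control tumors as a view of the members in a dish and in a mouse, without drug. The kind of library cannot be told apart from the growth setting, and the values of this paragraph are CPM on a scaling common to all 28 libraries. FAS, SESN1, GDF15, POLH, TIGAR, CCNG1, RPS27L, TRIAP1, PPM1D, MDM2 and FBXW7 were higher in cultures and 8 members were lower. The 11 and 8 of 30 members (36.7% and 26.7%) stand beside 22.8% and 23.1% of all 15466 genes tested. With the correction 7 were higher and 7 lower (23.3% each, against 22.7% and 17.8%), and 12 members were called in both fits.
TRIAP1, a small mitochondrial protein that blocks apoptosis, read 34.9, 35.4 and 37.7 CPM in tumors and 60.97, 64.5 and 68.2 CPM in cultures, a log2 fold change of 0.84 ± 0.14 (SE, adjusted p = 1.74e-05), and 0.68 ± 0.12 (adjusted p = 3.39e-05) with the correction. RPS27L, a ribosomal protein that acts on MDM2, read 54.95, 55.4 and 69.2 CPM and 85.5, 92.1 and 111 CPM, a change of 0.69 ± 0.15 (SE, adjusted p = 0.000469), and 0.47 ± 0.13 (adjusted p = 0.00374) with the correction. SESN1 read 15.3, 19.2 and 19.4 CPM and 21.9, 28.4 and 35.3 CPM, a change of 0.67 ± 0.20 (SE, adjusted p = 0.00758), but 0.35 ± 0.17 (adjusted p = 0.0990) with the correction, and it lost its call without Control culture 2 (adjusted p = 0.0798). MDM2 changed by 0.59 ± 0.09 (SE, adjusted p = 9.54e-06), and by 0.41 ± 0.09 (adjusted p = 0.000350) with the correction.
All 4 membrane and antiviral members were lower in cultures in both fits. TRIM22 read 6.26, 7.75 and 8.07 CPM in tumors and 0.640, 0.712 and 1.02 CPM in cultures, a change of -3.19 ± 0.40 (SE, adjusted p = 3.77e-07), or -3.37 ± 0.39 (adjusted p = 7.69e-08) with the correction. CD82 read 5.55, 9.15 and 9.18 CPM and 0.768, 1.78 and 3.13 CPM, a change of -2.08 ± 0.39 (SE, adjusted p = 8.86e-05), or -1.46 ± 0.37 (adjusted p = 0.00248). TP53I11 read 33.6, 40.2 and 42.6 CPM and 11.5, 14.2 and 17.4 CPM, a change of -1.43 ± 0.23 (SE, adjusted p = 1.20e-05), or -0.55 ± 0.12 (adjusted p = 0.000682). SUSD6, a membrane protein, was at -1.06 ± 0.23 (SE, adjusted p = 0.000423), or -0.82 ± 0.21 (adjusted p = 0.00274). The stromal and immune markers were also lower in cultures, 6 of 7 tested, as were 5 of 9 epithelial markers, and their part in these falls was not tested. The proliferation list was higher in cultures in 15 of 20 genes, and 19 with the correction.

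**Figure D5:**
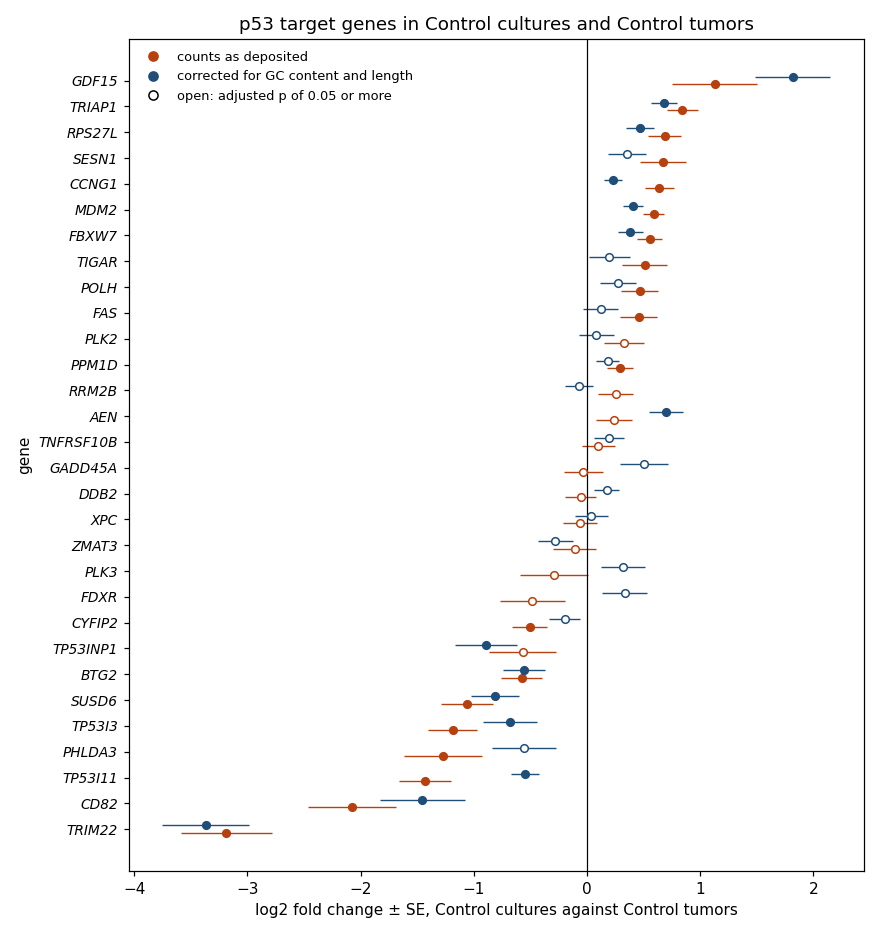
Log2 fold change of Control cultures against Control tumors for the 30 members, with bars of 1 SE, from deposited counts (orange) and from counts corrected for GC content and length (blue), filled where the adjusted p is under 0.05. TRIM22 lies farthest to the left at -3.19, and the 4 membrane and antiviral genes are all below 0.

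Whether the effect of a drug differed between tumors and cultures was tested directly. For Palbociclib 0 of 30 members passed edgeR's test, next to 0.356% of all genes called higher and 1.03% lower. DESeq2 called 1 member (PPM1D). With the correction 0 members were called, against 0.31% and 0.672% of all genes. At an unadjusted p under 0.05 by the deposited counts there were 2 of 30 members, against 2159 of all 15466 genes tested. PPM1D had the nearest miss, with a difference of -0.59 ± 0.15 (SE, adjusted p = 0.0542). For Telaglenastat 4 members were called higher and 8 lower (13.3% and 26.7%, against 15.6% and 18.5% of all genes). With the correction 0 members were called, against 1.21% and 2.59% of all genes. At an unadjusted p under 0.05 the corrected fit held 4 of 30 members, against 2747 of 15466 genes. By the deposited counts the positive differences that led were SESN1 at 0.77 ± 0.27 (SE, adjusted p = 0.0311) and the bypass polymerase POLH at 0.61 ± 0.22 (SE, adjusted p = 0.0347). The negative ones were FDXR at -1.90 ± 0.40 (SE, adjusted p = 0.00100) and GDF15 at -1.83 ± 0.53 (SE, adjusted p = 0.00902). With the correction FDXR was at -0.38 ± 0.28 (adjusted p = 0.506) and GDF15 at -0.63 ± 0.47 (adjusted p = 0.526). With 1 of the 13 libraries left out at a time, the call was lost in 4 cases for SESN1, 8 for POLH, 8 for FBXW7 and 2 for CD82, and in 0 for FDXR and GDF15. Of 7 other settings, both corrected fits included, the call was kept in 3 for SESN1, 4 for POLH, 4 for CD82 and 5 each for FDXR and GDF15. FBXW7 kept it in 0 of 7 (adjusted p of 0.0544 to 0.795). The count of 12 was 5 without Control culture 2 and 4 without Telaglenastat culture 2. For the Combination, PLK2 was called higher and TP53I11 and DDB2 lower (3.33% and 6.67%, against 2.11% and 0.795% of all genes). PLK2 and DDB2 were also called with the correction, where 1.34% and 1.24% of all genes were. Pearson's r of the members' Combination difference with GC content was -0.816, and -0.525 with the correction.
PLK2 read 140.5, 159.6 and 179 CPM in Control and 131, 131 and 150.4 CPM in Combination cultures, so that its rise in tumors was not seen there, and the difference of effects was 1.09 ± 0.24 (SE, adjusted p = 0.0157), or 0.89 ± 0.21 (adjusted p = 0.0191) with the correction. DDB2 read 30.4, 38.9 and 39.1 CPM in Control and 38.97, 40.2 and 42.4 CPM in Combination cultures, against 39.8, 40.5 and 44.4 CPM and 24.1, 25.4, 27.6 and 27.97 CPM in the tumors. Its difference was -0.73 ± 0.19 (SE, adjusted p = 0.0362), or -0.63 ± 0.15 (adjusted p = 0.0217) with the correction. TP53I11 was at -1.19 ± 0.32 (SE, adjusted p = 0.0403), or -0.54 ± 0.17 (adjusted p = 0.0963) with the correction. The PLK2 call was lost without Control culture 2 (adjusted p = 0.0600) or Combination culture 3 (0.0664), DDB2 lost its call without any one of 10 of the 13 libraries, and TP53I11 without any one of 11. No call was left without Control culture 2 or Combination culture 3, and 1 was left without Combination culture 1, any Control tumor, or Combination tumor 1, 2 or 3.

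For 13 of the 31 members an annotated coding gene overlaps on the opposite strand, such as the carboxypeptidase gene CPM for MDM2, ACTA2 for FAS, TSPAN18 for TP53I11, TRIM5 for TRIM22 and RHOBTB2 for TNFRSF10B. The libraries were prepared with uracil in the second cDNA strand, which was then excised, but whether the counts used strand is not stated. The values of these members carry that uncertainty.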

How the data were processed

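Poly(A) RNA libraries from 16 xenograft tumors and 12 derived cultures were analysed from the whole-number read counts per gene that the authors deposited. Base calls were made with CASAVA 1.8, and STAR aligned the reads to hg38 and counted them per gene. Libraries were prepared with a uracil-marked second strand. Whether counting used strand and whether mouse reads were removed are not given in the sources used here. The table held 0 columns of other samples, and 0 pairs of libraries had identical counts. Tumors and cultures were each fitted as 4 group means with edgeR 4.0.16 in R 4.3.3 (TMM scaling, filterByExpr with a minimum count of 10, quasi-likelihood test), and all 28 libraries as 8 group means for Control cultures against Control tumors and for differences of drug effects. Adjusted p values are Benjamini-Hochberg over all genes tested, with a threshold of 0.05. CPM was computed on TMM-scaled library sizes. P values set a difference of group means against the spread between libraries within groups. That spread was estimated jointly over the 4 or 8 groups of a fit, not for each group apart. The libraries come from separate tumors or lines as far as the study describes them.

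For the correction, each library's log2 CPM deviations (prior count 2) were fitted robustly (MASS 7.3.60.0.1) on splines with 5 degrees of freedom of GC content and log2 exon length from GENCODE 29, and the fitted values entered edgeR as offsets. GC content and length were found for 57881 of 58278 genes and for all 31 members. The model was run on simulated data with known changes, and the outcome is not given here. Where the simulation added a GC trend, it did so in Telaglenastat libraries alone, unlike in the tumors. It does not show whether drug and trend can be told apart in the tumors. Alternatives were DESeq2 1.42.0, no filter on low counts, a replicate block, the compared groups only, 1 fit of all libraries, and leaving out each library. Same-numbered libraries did not deviate together, with correlations of -0.128 to 0.09 over 21 pairs of tumors and -0.423 to 0.14 over 18 pairs of cultures.

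The members, lists and tests were chosen with earlier results of these data known. Members described in full passed the threshold without overlap of the groups' CPM, up to the 3 largest rises and falls in a comparison. Others, including those called only with the correction, were named after their values were seen. The results of 1 gene are not reported here.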

Additional observations from a re-analysis of the deposited data

Results flagged for a closer look

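Within groups of 4 or 5 tumors, 5 of 93 pairs of member and group had a library that stood apart from the others by Dixon's criterion, and 1 in 20 would give 4.7. In Palbociclib tumor 2, DDB2 read 27.3 CPM, against 36.6 to 39.3 CPM in the other 4, and RPS27L read 75.3 CPM, against 61.3 to 63.1 CPM. This tumor also had the lowest GC slope of its group, 0.096. In Telaglenastat tumor 2, FAS read 27.5 CPM, against 22.8 to 23.6 CPM, and TP53I3 read 14.5 CPM, against 11.8 to 12.2 CPM. PLK2 read 104 CPM in Telaglenastat tumor 4, against 160.2 to 171 CPM in the other 3.

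Differences between the drug effect in tumors and in cultures passed edgeR's interaction test for 12 members with Telaglenastat (log2, tumors minus cultures). These were MDM2 at 0.37, SESN1 at 0.77, POLH at 0.61, FBXW7 at 0.40, TP53I3 at -1.04, TP53I11 at -1.41, GDF15 at -1.83, DDB2 at -0.55, FDXR at -1.90, PLK3 at -1.42, PHLDA3 at -1.57 and CD82 at -1.63. None passed after the correction for GC content and length. For the Combination, TP53I11 was at -1.19, DDB2 at -0.73 and PLK2 at 1.09, of which DDB2 and PLK2 also passed after the correction.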

How the results depend on the processing

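The number of members called depended most on the correction for GC content and length. It fell from 18 to 2 for Telaglenastat, from 19 to 10 for Combination, from 19 to 4 for Combination against Palbociclib, and from 12 to 0 for the Telaglenastat difference between tumors and cultures. Over all genes the calls fell from 7590 to 1932, from 6612 to 3882, from 7064 to 2133 and from 5278 to 587 in the same order. With the replicate block and the correction together the member counts were 2, 9, 2 and 0. The replicate block alone gave 0 in place of 2 for Palbociclib and 1 in place of 3 for the Combination difference. The replicate numbers are no pairing, and the block moved no other count of members by over 1.5 times. Fitting the compared groups only gave 0 for Palbociclib, 7 for the Telaglenastat difference and 6 for the Combination difference. A single fit of all 28 libraries gave 1 for Palbociclib and 4 in place of 8 for Combination against Telaglenastat. Without the filter on low counts there was 1 in place of 0 for Combination against Telaglenastat cultures and for the Palbociclib difference, and DESeq2 also gave 1 for the latter. FBXW7 reversed in the Telaglenastat difference, to -0.10 with the correction and -0.11 with block and correction. Beyond the fewer libraries in some fits, the cause was not tested. For settings other than the correction alone, the share of all genes called is not given here. A change in those member counts therefore cannot be told from a general change in calls.

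Leaving out 1 library at a time gave 1 to 2 members for Palbociclib, 14 to 19 for Telaglenastat, 15 to 18 for Combination, 14 to 23 for Combination against Palbociclib and 4 to 7 for Combination against Telaglenastat. It gave 0 to 3 for Combination against Telaglenastat cultures (3 without Telaglenastat culture 1), and 14 to 17 for Control cultures against Control tumors. The differences between tumors and cultures ranged over 0 to 1 for Palbociclib, 4 to 16 for Telaglenastat and 0 to 3 for Combination. The Palbociclib count was 1 without any one of the 3 Control tumors or Palbociclib tumors 1, 2 and 5. The Palbociclib difference was 1 without Control culture 2 or Palbociclib tumor 1 or 2. The libraries behind the other lowest values are named with those results. For fits with 1 library left out, the share of all genes called is not given here, except without Telaglenastat culture 1. Of 313 values of named members under the other settings, 62 kept the direction but not the call, 2 reversed, and the others kept both.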
